A study of Mus musculus with 12 samples.

Results

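Genes whose transcripts were lower in every lung library from bleomycin-treated mice than in every Control library were examined, 81 of the 56980 genes in the table. CPM is a count divided by its library's total and scaled so that each library sums to 1000000. Members were chosen by their measured CPM. A gene was a member if its 4 Control libraries averaged at least 2 CPM, the highest of the 8 bleomycin libraries lay below the lowest Control library, and the mean of those 8 was under 0.6 of the Control mean. Genes of the mitochondrial genome, the ribosomal, respiratory chain and Klf families, the H2ac histones and 5 single genes were left out by name. Of the 14492 genes with a Control mean of at least 2 CPM, 257 (1.77%) had all 8 bleomycin libraries below all 4 Control libraries, and 93 (0.642%) met the numeric criteria in full. The names left out accounted for 12 of those 93. In the opposite direction, 215 genes (1.48%) had all 8 bleomycin libraries above Control. Since the differences of HBG and Model from Control chose the members, they are described here without a test.

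The lungs were those of male C57BL/6 mice, 6 to 8 weeks old, and polyadenylated RNA was sequenced in 4 libraries from each of the groups HBG, Model and Control (12 in all). HBG mice received bleomycin once, at 5 mg/kg into the trachea, and Huashibaidu granules, a herbal preparation, by mouth at 7 g/kg, Model mice received the same bleomycin and distilled water, and Control mice received distilled water. The labels name no instillation for Control, and they disagree on HBG, which the series text begins 1 week before bleomycin and continues to day 28, and the sample labels begin on day 7 for 14 days. Separate animals are not stated for the 4 libraries of a group, so the errors and p-values measure the spread between libraries, which may be technical.

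Totals ranged from 17979908 to 27150874 estimated counts, and 3 counts corresponded to 0.1105 to 0.167 CPM, a limit that covers counting error only. All 11 lung markers were present, with sums of 37056 to 75110 CPM in HBG, 40820 to 57836 CPM in Model and 67297 to 84426 CPM in Control. Sums of cardiac, erythrocyte, T cell, B cell, neutrophil and adipocyte markers overlapped between the groups, and macrophage sums were 201 to 858 CPM in HBG, 181 to 1870 CPM in Model and 123 to 216 CPM in Control. Of these markers, Lep was the only one at 0 in any library. Cdkn1a stood apart in HBG 3, Model 2 and Control 4, at 74.9, 175 and 56.9 CPM against 499.8 to 732 CPM in the other 9 libraries.

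Bleomycin is an antibiotic that breaks DNA. Instilled into the mouse lung, it injures the alveolar epithelium, which is followed by inflammation and then by deposition of matrix. Genes also differ in architecture: many short genes with few introns have transcripts and promoters rich in G and C, including regulators that are made and lost quickly.

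As a set, the members differed from other genes in a sequence property that the rule did not use. Their longest transcripts in the GENCODE M21 annotation (build GRCm38) had a higher median GC content than those of expressed genes. Not every member was rich in G and C, and 8 of 79 lay below 45% GC. Coding sequences of some members are given as examples. Each is the stretch of 120 coding bases with the highest GC content, 5′ to 3′, with every CG dinucleotide in capitals. Scand1, Nrtn, Zfp771 and Kcnk12 had some of the largest differences, and Snrpf, a member with one of the lowest GC contents, is shown for contrast.
Scand1: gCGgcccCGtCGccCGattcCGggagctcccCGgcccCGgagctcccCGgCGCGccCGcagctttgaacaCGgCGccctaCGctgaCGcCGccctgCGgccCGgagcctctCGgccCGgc
Nrtn: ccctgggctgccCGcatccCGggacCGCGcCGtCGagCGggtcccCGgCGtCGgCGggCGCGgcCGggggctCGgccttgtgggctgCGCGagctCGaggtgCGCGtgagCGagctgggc
Zfp771: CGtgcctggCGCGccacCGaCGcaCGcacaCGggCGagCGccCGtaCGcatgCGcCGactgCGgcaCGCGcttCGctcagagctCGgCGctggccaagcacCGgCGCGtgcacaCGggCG
Kcnk12: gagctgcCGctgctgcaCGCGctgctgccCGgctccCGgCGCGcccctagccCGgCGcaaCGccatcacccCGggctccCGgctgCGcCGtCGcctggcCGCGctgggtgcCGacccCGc
Snrpf: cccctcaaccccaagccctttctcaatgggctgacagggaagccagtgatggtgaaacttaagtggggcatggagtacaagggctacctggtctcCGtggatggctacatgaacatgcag
The stretch covers bases 79 to 198 of the 426 coding bases in Scand1, 223 to 342 of 585 in Nrtn, 563 to 682 of 951 in Zfp771, 939 to 1058 of 1290 in Kcnk12 and 10 to 129 of 258 in Snrpf, counted without the stop codon. It held 80.8% G and C in Scand1, 81.7% in Nrtn, 76.7% in Zfp771, 81.7% in Kcnk12 and 55% in Snrpf. The CG dinucleotide occurred 20, 21, 24 and 19 times in the first 4 and 1 time in Snrpf, counts that are given for the genes shown only.

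Over the 63 members with a coding sequence, the richest stretch had a median GC content of 78.3% (quartiles 75.8% and 81.2%), against 65% (quartiles 60% and 70%) over 13451 genes with a Control mean of at least 2 CPM. It reached 80% in 23 members (36.5%) and in 819 of all such genes (6.09%). The median coding sequence had 585 bases in members and 1404 bases in all.

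Over whole transcripts, GC content was known for 79 members and was higher too, with a median of 59.2% against 49.6% over 14362 expressed genes, where expressed means a Control mean of at least 2 CPM. At least 60% GC was found in 37 of 79 members (46.8%) and in 540 expressed genes (3.76%). At least 65% was found in 16 of 79 members (20.3%) and in 38 expressed genes (0.265%), so 16 of those 38 genes (42.1%) were members. Members were 8 of 3803 genes below 45% GC, 5 of 3702 at 45 to 50% and 11 of 3756 at 50 to 55%. They were 18 of 2561 at 55 to 60%, 21 of 502 at 60 to 65% and 16 of 38 at 65% or more. The Spearman correlation of GC content with the ratio of bleomycin to Control was -0.019 over all 14362 expressed genes and -0.38 over the 79 members. The rule chose the members by that ratio, so these coefficients cover unlike ranges and cannot be compared directly. All but 1 of the 38 had a bleomycin mean below the Control mean, which the rule fixes for the 18 that met the numeric criteria. Such a mean was found for 1541 of the 3803 genes below 45% GC and 290 of the 502 at 60 to 65%. The 22 of the 38 that were not members had a median log2 ratio of bleomycin to Control of -0.49. The median was -0.057 for non-members at 60 to 65% GC and 0.040 for those below 45% GC. Of the 38 genes, 18 met the numeric criteria in full, so the 22 include genes left out by name only.

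Members were also short and had few exons. Their median gene length in the deposited table was 1359 bases (quartiles 888 and 2033), against 2838 bases (quartiles 1803 and 4301) over the 14492 expressed genes. A length under 1500 bases was found in 47 of 81 members (58.0%) and 17.7% of expressed genes, and 7 members were longer than the expressed median. The longest transcript had a single exon in 25 of 79 members (31.6%) and 7.96% of expressed genes, and 5 or more exons in 15 members (19.0%) and 68.1% of expressed genes. Over all expressed genes, the median log2 ratio of bleomycin to Control was -0.12 below 1000 bases and 0.12 at 5000 bases or more.

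Length and GC content marked members together. Of 126 expressed genes with at least 60% GC and a length under 1500 bases, 23 (18.3%) were members, against 22 of 2400 (0.917%) with less GC at that length and 3 of 6529 (0.0459%) with less GC and at least 3000 bases.

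**Figure D1:**
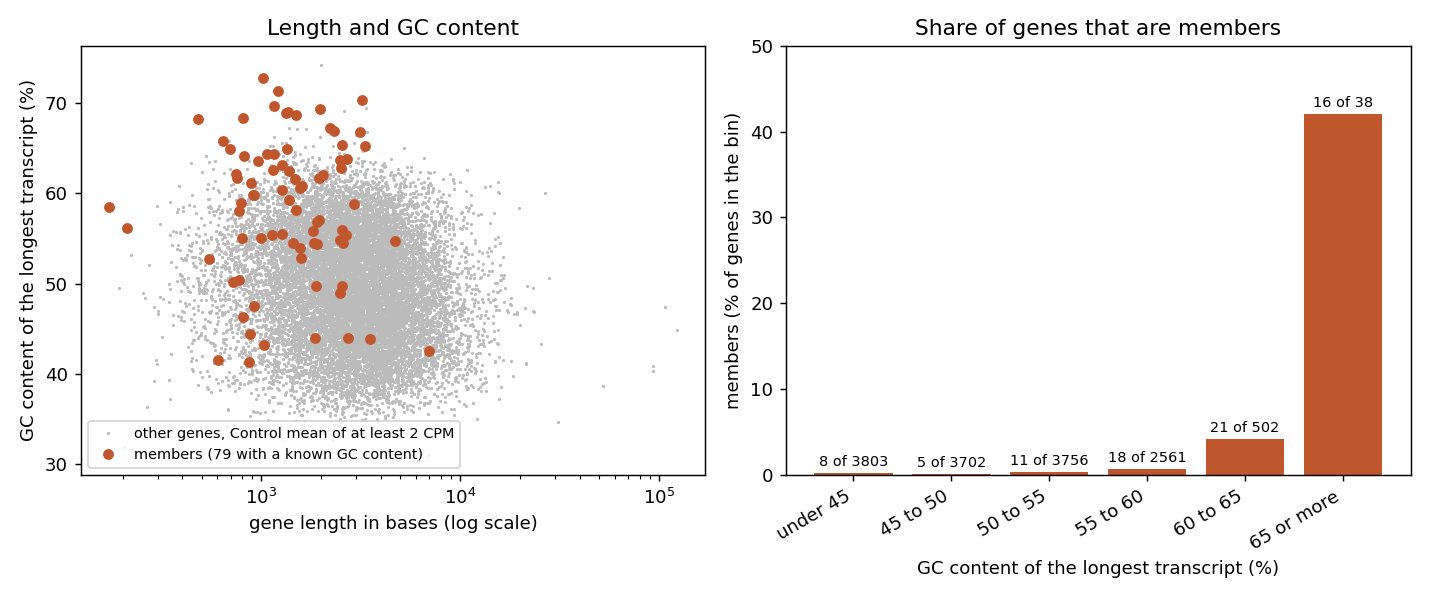
Left, gene length in bases on a log scale (x axis) and GC content of the longest transcript in percent (y axis) for the 79 members with a known GC content (orange) and other expressed genes (grey). Right, the share of genes in each GC bin that were members, in percent, with counts above the bars. Members tend to lie to the upper left, though not all do, and 16 of the 38 genes with at least 65% GC were members.

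Promoters were compared in the 250 bases before the annotated start, from RefSeq (GRCm38.p6), in which 56 of the 81 members had a window. Those of the 3 genes used as markers of the group, and of Nrtn and Kcnk12, are shown because these 5 had large differences. Capitals mark GC boxes, the letters GGGCGG or their reverse complement CCGCCC, the sequence known to be bound by Sp family factors. All are given 5′ to 3′ on the gene's strand.
Scand1: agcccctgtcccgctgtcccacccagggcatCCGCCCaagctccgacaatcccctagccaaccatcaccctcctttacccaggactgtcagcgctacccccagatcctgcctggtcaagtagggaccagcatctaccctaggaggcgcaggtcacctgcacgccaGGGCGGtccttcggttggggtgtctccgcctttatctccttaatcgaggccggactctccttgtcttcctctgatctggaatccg
Zfp771: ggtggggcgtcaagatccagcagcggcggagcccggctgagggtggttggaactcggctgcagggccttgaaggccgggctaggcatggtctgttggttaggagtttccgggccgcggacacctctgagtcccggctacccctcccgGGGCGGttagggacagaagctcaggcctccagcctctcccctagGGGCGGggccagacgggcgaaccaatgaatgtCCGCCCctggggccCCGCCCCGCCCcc
Tmem238: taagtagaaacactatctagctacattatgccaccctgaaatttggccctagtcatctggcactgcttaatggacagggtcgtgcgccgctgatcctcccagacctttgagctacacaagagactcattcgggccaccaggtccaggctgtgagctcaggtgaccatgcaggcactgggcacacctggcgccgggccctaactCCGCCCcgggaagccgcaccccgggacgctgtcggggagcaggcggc
Nrtn: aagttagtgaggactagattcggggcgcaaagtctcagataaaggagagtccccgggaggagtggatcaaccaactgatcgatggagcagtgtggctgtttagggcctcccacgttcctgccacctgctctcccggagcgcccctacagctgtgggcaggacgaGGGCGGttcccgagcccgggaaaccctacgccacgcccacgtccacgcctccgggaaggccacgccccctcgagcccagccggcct
Kcnk12: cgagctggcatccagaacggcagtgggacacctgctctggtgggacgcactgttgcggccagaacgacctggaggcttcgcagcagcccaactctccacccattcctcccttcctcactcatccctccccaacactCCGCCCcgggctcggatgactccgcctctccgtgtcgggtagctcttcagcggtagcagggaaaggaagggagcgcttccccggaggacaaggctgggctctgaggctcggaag
The windows lie at chr2:156312705-156312954 (minus strand) for Scand1, chr7:127244276-127244525 (plus) for Zfp771, chr7:4789561-4789810 (minus) for Tmem238, chr17:56757549-56757798 (minus) for Nrtn and chr17:87797995-87798244 (minus) for Kcnk12. They held 2 GC boxes in Scand1, 5 in Zfp771 and 1 in each of the other 3, counted on both strands with overlapping matches counted singly, and none held TATAAA on the gene's strand or its reverse complement TTTATA. Across members, 31 of 56 windows (55.4%) held a GC box, against 57.7% of 10996 windows of expressed genes and 32.96% of all 27025 windows. TATAAA was found in 3 member windows (5.36%), 6.81% of expressed windows and 13.0% of all windows. Median GC content of the window was 61.4% in members and 59.6% in expressed genes. The median ratio of observed to expected CG dinucleotides was lower in members, at 0.618, than in expressed genes, at 0.711. It was 0.379 in all windows. In both motifs, the share among members lay nearer to that of expressed genes than to that of all windows.

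Most members had a moderate difference and a few a very large one. The mean of the 8 bleomycin libraries was 0.016 to 0.5997 of the Control mean, with a median of 0.489. It was under 0.5 in 43 members, under 0.2 in 8 and under 0.1 in 2. Taken separately, the median ratio to Control was 0.506 for HBG and 0.460 for Model, which share the Control libraries. The lowest Control library exceeded the highest bleomycin library by a median of 1.28-fold, by more than 2-fold in 8 members and by less than 1.1-fold in 12. Control means were under 5 CPM in 27 members, 5 to 20 CPM in 25 and 20 CPM or more in 29.

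**Figure D2:**
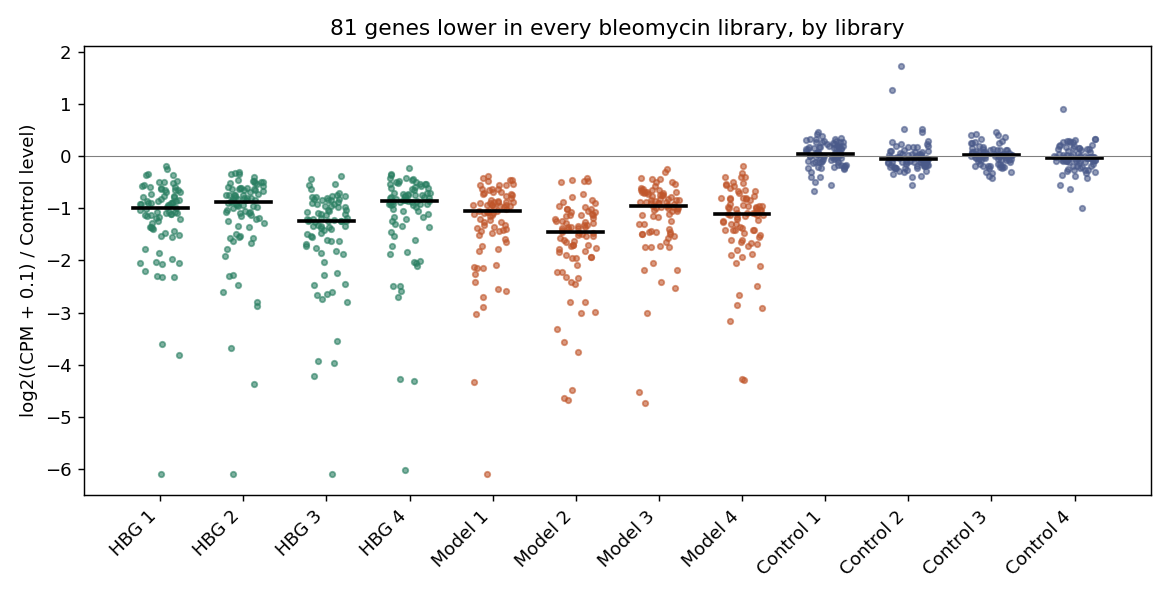
Level of each of the 81 members (points) in each library (x axis), as log2 of CPM + 0.1 minus the mean of that value over the 4 Control libraries (y axis), with the library median as a bar. The medians were -1.25 to -0.86 in HBG, -1.45 to -0.96 in Model and -0.059 to 0.034 in Control.

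Transcription and DNA-binding regulators made up 13 members, with ratios of 0.048 to 0.593. Scand1, a SCAN domain protein without zinc fingers that pairs with SCAN zinc finger proteins, had 2.17, 1.44, 1.95 and 1.54 CPM in HBG libraries, 1.49, 1.14, 1.102 and 1.54 CPM in Model libraries, against 40.1, 26.9, 31.9 and 29.2 CPM in Control libraries. The bleomycin libraries all lay near 1 to 2 CPM, and the lowest Control library was 12.4-fold above the highest of them. Its mean was 1.78 ± 0.345 CPM in HBG, 1.32 ± 0.229 CPM in Model, with 32.04 ± 5.76 CPM in Control (SD, n = 4 per group). Exons of Cnbd2 overlap those of Scand1 on the opposite strand, and Cnbd2 averaged 5.65 ± 0.371 CPM in HBG, 6.17 ± 1.41 CPM in Model, with 7.53 ± 0.696 CPM in Control. Of 20 SCAN domain genes tested, Scand1 was the only member, and the family's median ratio was 1.05, against 1.03 over all expressed genes.

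Zfp771, a C2H2 zinc finger protein, had 2.21, 1.45, 1.98 and 2.699 CPM in HBG, 2.03, 1.32, 1.86 and 1.47 CPM in Model, against 12.8, 10.4, 11.3 and 10.7 CPM in Control. The HBG and Model libraries were interleaved, and the Control libraries were tightly grouped well above them. Zfp579, another zinc finger protein, had 19.99, 16.9, 11.1 and 16.5 CPM in HBG, 17.2, 12.3, 17.5 and 21.3 CPM in Model, against 30.9, 26.01, 28.1 and 28.1 CPM in Control, so its Model and Control libraries came close. Among 373 Zfp genes tested there were 4 members, the others being Zfp580 and Zfp428, and the family's median ratio was 1.03.

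Mesp1, a basic helix-loop-helix factor of early cardiac mesoderm, had 0.5404, 1.17, 0.723 and 1.27 CPM in HBG, 0.468, 0.5599, 0.707 and 0.8102 CPM in Model, against 2.76, 2.74, 2.43 and 1.88 CPM in Control. It was low in every library. Ccdc85b, a coiled-coil protein that binds transcription factors, had 14.2, 18.95, 23.7 and 21.1 CPM in HBG, 13.8, 14.8, 14.6 and 16.5 CPM in Model, against 51.9, 36.97, 49.2 and 60.3 CPM in Control. The Model libraries were close together, and all but 1 of the HBG libraries lay above them.

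Among the developmental factors of this group, chosen after their values were seen, Hoxa5, which is required for lung development in mice, had 11.5, 24.2, 18.4 and 17.2 CPM in HBG, 15.2, 11.9, 18.9 and 23.1 CPM in Model, against 30, 35.3, 30.7 and 40.9 CPM in Control. Tbx1, a T-box factor of the pharyngeal region, had 14.7, 12.1, 4.53 and 13.6 CPM in HBG, 12.01, 8.602, 8.49 and 15.1 CPM in Model, against 16.8, 18.1, 18.1 and 23.2 CPM in Control. Hoxa5 and Tbx1 both had bleomycin libraries close to the lowest Control library, and HBG 3 was lowest for Tbx1. Hoxa5 was 1 member among 15 Hox genes tested, whose median ratio was 0.817. The Iroquois factor Irx5 had ratio 0.593, and its neighbour in family Irx3, not a member, averaged 38.2 ± 3.14 CPM in HBG, 40.4 ± 9.42 CPM in Model, with 62.9 ± 4.77 CPM in Control. The orphan nuclear receptor Nr2f6 had 20.7 ± 4.25 CPM in HBG, 18.5 ± 5.25 CPM in Model, with 42.2 ± 4.34 CPM in Control.

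The 10 signalling and other cytosolic proteins had ratios of 0.158 to 0.589. Ppp1r14a, an inhibitor of myosin phosphatase in smooth muscle, had 13.3, 17.4, 15.03 and 15.3 CPM in HBG, 12.4, 15.9, 12.1 and 17.4 CPM in Model, against 56.4, 51.8, 57.3 and 55.1 CPM in Control. Its Control libraries were close together and far above the others, and HBG and Model overlapped. For the smooth muscle genes Acta2, Myh11, Cnn1, Tagln and Des, a list chosen after values were seen, the groups overlapped, with a summed level of 744 to 2598 CPM in HBG, 1229 to 2716 CPM in Model and 1206 to 2145 CPM in Control. In bulk tissue, fewer cells of a type and less RNA per cell cannot be told apart. Its relatives Ppp1r14b and Ppp1r14c were chosen after their values were seen. Ppp1r14b averaged 15.95 ± 3.35 CPM in HBG, 17.9 ± 5.44 CPM in Model, with 19.4 ± 0.532 CPM in Control. Ppp1r14c averaged 100.1 ± 15.7 CPM in HBG, 91.7 ± 1.79 CPM in Model, with 127 ± 7.27 CPM in Control, and every Model library lay below every Control library, while HBG overlapped Control.

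C2cd4b, a nuclear protein of endothelial and other cells linked to inflammatory signals, had 4.59, 3.12, 1.72 and 2.06 CPM in HBG, 2.45, 1.65, 2.85 and 2.05 CPM in Model, against 8.46, 39.97, 10.3 and 6.02 CPM in Control. A single library, Control 2, carried most of its Control mean. The other 3 Control libraries had 6.02 to 10.3 CPM, and the rule itself requires them to lie above all bleomycin libraries.

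Feedback inhibitors of signalling pathways were among the members chosen after their values were seen. Nrarp, which is induced by Notch and dampens it, had 26.2, 51.7, 27.2 and 37.9 CPM in HBG, 30.5, 23.4, 52.4 and 36.9 CPM in Model, against 72.04, 70.04, 71.2 and 72.1 CPM in Control. Its Control libraries were nearly equal, while bleomycin libraries spread widely. The antisense gene Gm38287, whose exons overlap those of Nrarp in GENCODE M21, had 10.4 to 18.6 CPM in HBG, 6.72 to 16.5 CPM in Model and 0 in all 4 Control libraries, where a count of 0 allows up to 0.159 CPM. The 2 genes summed to 49.9 ± 10.98 CPM in HBG, 48.9 ± 16.01 CPM in Model, with 71.4 ± 0.960 CPM in Control (SD, n = 4 per group). The sources used here do not state whether the authors' counting used strand, and the division of reads between both genes is uncertain. Socs1, an inhibitor of JAK-STAT cytokine signalling, had 1.57, 1.33, 1.301 and 0.716 CPM in HBG, 1.61, 0.611, 1.68 and 0.506 CPM in Model, against 2.01, 2.06, 2.62 and 3.04 CPM in Control. None of the 18 immediate early genes tested was a member, although all 18 had negative fitted log2 fold changes in both groups and a median ratio of 0.540. Negative fitted changes were found for 8737 of all 17827 genes tested in HBG and 8640 in Model, and the median ratio over expressed genes was 1.03.

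Secreted proteins numbered 7, with ratios of 0.126 to 0.593. Nrtn encodes neurturin, a ligand of the GDNF family that signals through the coreceptor Gfra2 and the receptor Ret. It had 0.491, 0.111, 0.337 and 0.386 CPM in HBG, 0.364, 0.102, 0.707 and 0.203 CPM in Model, against 2.28, 3.77, 2.099 and 2.59 CPM in Control. Several bleomycin libraries were within a few counts of 0, and HBG 2 and Model 2 lay under the level of 3 counts. Ret averaged 4.499 ± 1.03 CPM in HBG, 4.61 ± 0.722 CPM in Model, with 4.88 ± 0.898 CPM in Control, and Gfra2 averaged 20.97 ± 11.5 CPM in HBG, 20.5 ± 8.35 CPM in Model, with 16.2 ± 3.56 CPM in Control. Nrtn was the only member among the 8 tested genes of the GDNF family and its receptors.

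Plac9, a small secreted protein, had 69.8, 109, 76.3 and 71.9 CPM in HBG, 59.9, 63.9, 84.4 and 109 CPM in Model, against 133, 159, 159 and 174 CPM in Control. HBG 2 and Model 4 were the highest bleomycin libraries and approached Control. The remaining secreted members were the cystatin Cst8, the cytokine Il17d, the neuropeptide Npw, neudesin (Nenf) and the chondroadherin-like matrix protein Chadl, with ratios of 0.441 to 0.593.

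Channels, transporters and membrane proteins numbered 9. Kcnk12, a tandem-pore potassium channel subunit, had 0.982, 1.001, 0.193 and 1.21 CPM in HBG, 0.728, 1.07, 0.575 and 1.67 CPM in Model, against 5.09, 6.47, 4.64 and 5.23 CPM in Control. All bleomycin libraries were under 2 CPM and all Control libraries above 4 CPM. The other 7 Kcnk genes tested were not members, and the family's median ratio was 0.983.

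Tmem238, a small transmembrane protein, had 2.702, 1.95, 1.54 and 2.699 CPM in HBG, 2.6, 1.32, 2.03 and 2.53 CPM in Model, against 13.2, 10.1, 10.8 and 11.4 CPM in Control. HBG and Model covered nearly the same range, far below Control. Tmem160, which is mitochondrial, was the other of 2 members among 194 Tmem genes tested, with 10.9, 9.96, 6.07 and 11.02 CPM in HBG, 10.6, 5.55, 12.3 and 5.42 CPM in Model, against 25.7, 19.6, 21.9 and 17.3 CPM in Control.

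Inafm1, a membrane protein, had 10.9, 12.2, 9.01 and 9.69 CPM in HBG, 8.16, 6.62, 8.93 and 9.06 CPM in Model, against 18.3, 14.2, 18.01 and 18.6 CPM in Control. Scarf2, a scavenger receptor family protein, had 44.9, 54.95, 60.04 and 46.7 CPM in HBG, 54.7, 65.3, 52.7 and 45.8 CPM in Model, against 107, 75.9, 84.2 and 87.4 CPM in Control. With a ratio of 0.5997, Scarf2 was the member nearest to the limit, and its highest Model library was Model 2, the library that was the lowest of the 8 for more members than any other.

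The 11 mitochondrial proteins had ratios of 0.351 to 0.587. Chchd2 and Chchd10 are paired proteins of the intermembrane space. Chchd10 had 50.8, 37.7, 19.7 and 62.4 CPM in HBG, 39.3, 28.2, 39.5 and 54.8 CPM in Model, against 95.8, 125, 111 and 107 CPM in Control. Chchd2 had 154, 126, 82.3 and 153 CPM in HBG, 126, 79.9, 106 and 76.01 CPM in Model, against 203, 196, 215 and 172 CPM in Control. Both were lowest in HBG 3 among the HBG libraries.

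Mrps24 and Mrps34, proteins of the small subunit of the mitochondrial ribosome, were the 2 members among 79 Mrpl and Mrps genes tested. Mrps24 had 12.2, 13.3, 8.91 and 11.8 CPM in HBG, 9.93, 7.69, 10.8 and 6.99 CPM in Model, against 22.4, 20.9, 23.6 and 19.8 CPM in Control. Mrps34 had 16.1, 13.9, 11.6 and 13.1 CPM in HBG, 14.7, 11.95, 13.2 and 11.4 CPM in Model, against 26.7, 23.8, 23.03 and 23.8 CPM in Control. The family's median ratio was 0.939, with negative fitted changes against Control for 71 of 79 genes in HBG and 65 in Model. Of all 17827 genes tested, 8737 had negative fitted changes in HBG and 8640 in Model.

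Mpc2, a subunit of the mitochondrial pyruvate carrier, had 34.3, 28.6, 20.6 and 31.9 CPM in HBG, 25.6, 18.6, 23.7 and 18.8 CPM in Model, against 48.9, 53.6, 51.7 and 42.9 CPM in Control. The mitochondrial ferredoxin Fdx1, which passes electrons to mitochondrial cytochrome P450 enzymes, and the nuclease Endog were chosen after their values were seen. Fdx1 averaged 19.5 ± 4.49 CPM in HBG, 16.7 ± 3.797 CPM in Model, with 40.3 ± 3.92 CPM in Control. Endog averaged 4.32 ± 1.98 CPM in HBG, 2.86 ± 0.208 CPM in Model, with 10.2 ± 0.433 CPM in Control. By the deposited annotation terms, 11 members (13.6%) were mitochondrial against 10.03% of expressed genes, 26 (32.1%) nuclear against 31.8%, 6 (7.41%) transcription factors against 3.46%, and 3 (3.70%) of the plasma membrane against 14.7%. The sets are unlike, since the expressed genes keep the names that the rule left out of the members. Among the 12 genes left out that met the numeric criteria were Cox11, Ndufab1, Cox8a, Cox5b, Cebpb and Jund.

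RNA-handling and chromatin proteins numbered 7, with ratios of 0.3896 to 0.571. Rnaseh2c, a subunit of the ribonuclease that removes ribonucleotides from DNA, had 12.7, 14.1, 13.7 and 16.8 CPM in HBG, 12.2, 8.75, 9.57 and 8.17 CPM in Model, against 24.7, 23.1, 23.6 and 23.1 CPM in Control. Every HBG library lay above every Model library and, as the rule requires, below every Control library.

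Hnrnpa0, an RNA-binding protein, had 70.2, 74.9, 74.6 and 74.3 CPM in HBG, 73.2, 61.5, 67.1 and 55.5 CPM in Model, against 139, 124, 128 and 147 CPM in Control. H2aj, a histone H2A variant, had 37.6, 36.2, 22.4 and 36.7 CPM in HBG, 41.97, 16.4, 38.2 and 34.97 CPM in Model, against 92.4, 93.2, 100.7 and 53.03 CPM in Control. The lowest H2aj library of each group was HBG 3, Model 2 and Control 4, the 3 libraries low in Cdkn1a, and whether that has a part in the H2aj levels was not tested. Trir, a ribonuclease that interacts with telomerase RNA, had 43.2, 35.7, 30.7 and 43.1 CPM in HBG, 38.7, 26.5, 44.6 and 36.6 CPM in Model, against 78.2, 73.5, 81.3 and 82.4 CPM in Control.

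Named long noncoding RNAs numbered 4. Malat1, a nuclear speckle RNA and the most abundant member, had 2492, 3669, 1794 and 2785 CPM in HBG, 2718, 2233, 2923 and 3142 CPM in Model, against 4532, 5138, 4188 and 4289 CPM in Control. HBG 2 was the highest bleomycin library and HBG 3 the lowest. The other nuclear RNA of the marker lists, Neat1, averaged 1297 ± 411 CPM in HBG, 1351 ± 353 CPM in Model, with 1666 ± 286 CPM in Control, with overlapping groups. Malat1 is long and had 42.5% GC, outside the pattern of the short GC-rich members. Zbtb11os1, antisense to Zbtb11, had 1.904, 2.19, 1.42 and 1.39 CPM in HBG, 1.54, 0.948, 1.698 and 1.302 CPM in Model, against 5.85, 4.92, 4.14 and 4.47 CPM in Control, while Zbtb11 itself averaged 30.2 ± 3.74 CPM in HBG, 25.5 ± 3.06 CPM in Model, with 26.7 ± 2.41 CPM in Control (SD, n = 4 per group).

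The 20 members with predicted, clone-based or no names had ratios of 0.016 to 0.595. Gm20458 had 0, 0, 0 and 0.247 CPM in HBG, 0, 0.176, 0.198 and 0.248 CPM in Model, against 6.01, 5.76, 7.305 and 8.16 CPM in Control. It was the lowest ratio of all, resting on bleomycin values near the level of 3 counts, and its exons overlap those of Sys1 and Dbndd2 on the same strand. Sys1 averaged 21.4 ± 4.599 CPM in HBG, 17.8 ± 2.95 CPM in Model, with 24.4 ± 2.45 CPM in Control, and Dbndd2 33.2 ± 4.06 CPM in HBG, 34.6 ± 6.82 CPM in Model, with 32.95 ± 2.79 CPM in Control (SD, n = 4 per group). Gm49027, which shares exons with Diablo, averaged 0.827 ± 0.406 CPM in HBG, 0.803 ± 0.444 CPM in Model, with 3.02 ± 0.459 CPM in Control, and Diablo 43.8 ± 5.29 CPM in HBG, 41.9 ± 3.19 CPM in Model, with 41.5 ± 2.58 CPM in Control.

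Of the other predicted members, Gm1673 had 0.442, 0.222, 0.0482 and 0.275 CPM in HBG, 0.416, 0, 0.575 and 0.253 CPM in Model, against 1.59, 2.204, 2.87 and 2.08 CPM in Control. Gm55594 had 3.84, 6.895, 1.59 and 5.24 CPM in HBG, 7.75, 1.87, 6.82 and 5.19 CPM in Model, against 12.3, 47.1, 18.9 and 13.2 CPM in Control, with Control 2 far above the other Control libraries. Gm14964 averaged 1.51 ± 0.404 CPM in HBG, 1.09 ± 0.411 CPM in Model, with 4.78 ± 2.41 CPM in Control. Gm8226 averaged 1.42 ± 1.16 CPM in HBG, 2.47 ± 1.22 CPM in Model, with 6.55 ± 1.86 CPM in Control, and Gm10443, just inside the limit, 21.01 ± 1.54 CPM in HBG, 19.1 ± 5.13 CPM in Model, with 33.7 ± 6.59 CPM in Control.

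Just outside the limit of 0.6 lay Muc6 at a ratio of 0.603, Junos at 0.604 and Malsu1 at 0.605, against 0.595 for Gm10443, 0.599 for Malat1 and 0.5997 for Scarf2 inside it. Muc6 averaged 11.3 ± 3.60 CPM in HBG, 15.4 ± 2.73 CPM in Model, with 22.1 ± 1.88 CPM in Control. Junos averaged 2.17 ± 0.223 CPM in HBG, 1.84 ± 0.626 CPM in Model, with 3.32 ± 0.386 CPM in Control. Malsu1 averaged 5.14 ± 0.470 CPM in HBG, 4.23 ± 0.521 CPM in Model, with 7.75 ± 0.969 CPM in Control.

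Some members share exons with other genes. Exons of 34 members overlapped another gene in GENCODE M21, 32 of them on the opposite strand and 7 on the same strand, and 45 placed members had no overlap. Counts were not whole numbers in all 12 libraries for 24 members (29.6%), against 15.8% of expressed genes; values that are not whole arise where an estimator divides reads between genes. The 36 members with no overlap and whole counts in all libraries had a median ratio of 0.486, a median GC content of 62.3% and a median length of 1430 bases.

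**Figure D3:**
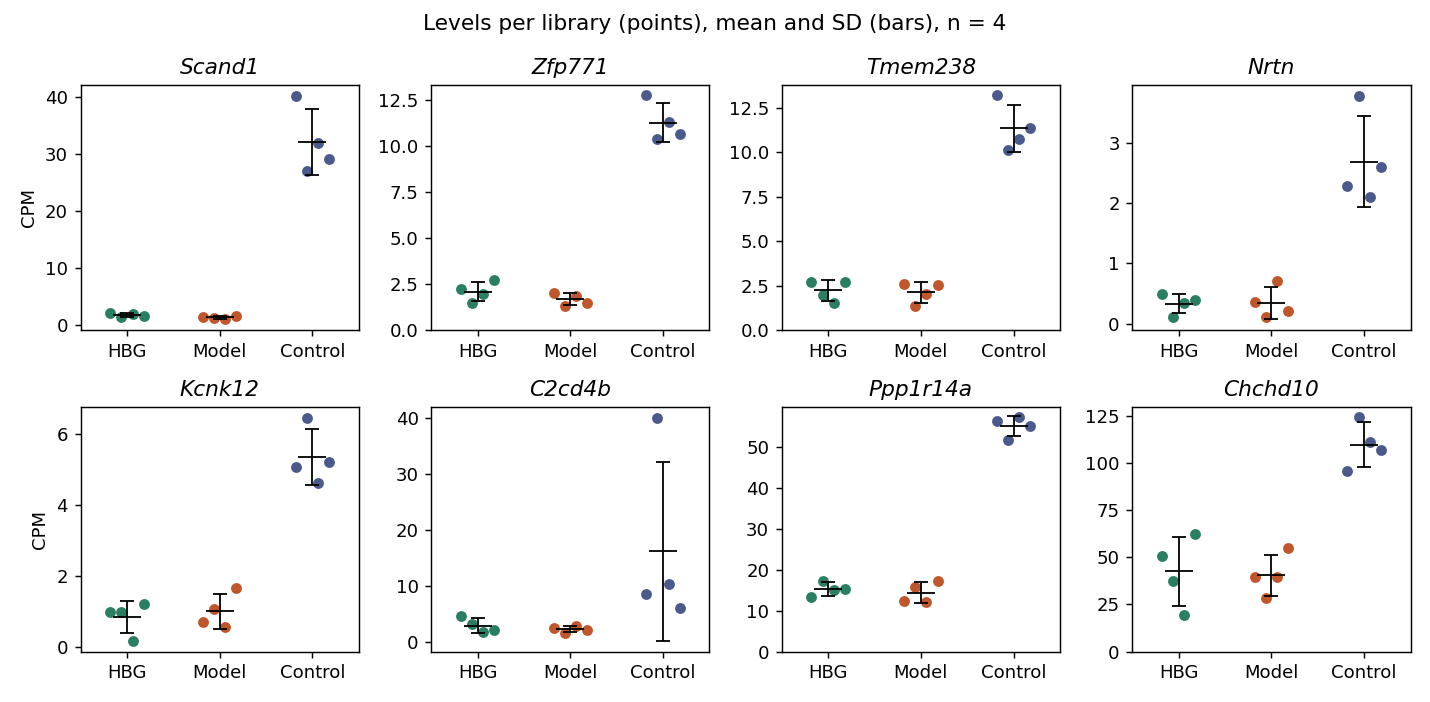
Level in CPM (y axis) of 8 members in the 4 libraries (points) of HBG, Model and Control (x axis), with the mean and SD (n = 4). In each panel all HBG and Model libraries lie below all Control libraries, as the rule requires. For C2cd4b the Control spread comes from 1 library at 39.97 CPM.

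The libraries given bleomycin differed among themselves. Model 2 was the lowest of the 8 for 32 members and HBG 3 for 15. The median log2 level of members relative to Control was -0.99, -0.88, -1.25 and -0.86 in HBG 1 to 4 and -1.06, -1.45, -0.96 and -1.11 in Model 1 to 4. Non-members with at least 65% GC had medians of -0.51, -0.46, -0.75 and -0.25 in HBG and -0.32, -0.78, -0.32 and -0.32 in Model, so the same 2 libraries were lowest there. Non-members below 45% GC lay between -0.014 and 0.12 in all 8. Whether library composition has a part in the members' levels was not tested. The rule found 74 members without Model 2 and 77 without HBG 3.

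By edgeR's quasi-likelihood test with Benjamini-Hochberg adjustment over 17827 genes at a threshold of 0.05, 16 of the 81 members were called lower in HBG than in Control and 30 lower in Model than in Control. These counts stand beside 23 genes called lower in all (0.129%) for HBG and 53 (0.297%) for Model. Nothing is read from them, since the same libraries chose the members. A fit with offsets for GC content and length called 18 members lower in HBG, of 28 genes in all (0.157%), and 25 lower in Model, of 46 (0.258%). The members' median log2 fold change against Control was -1.04 in HBG and -1.12 in Model without offsets. With offsets these medians were -0.82 and -0.94. The offsets were smoothed over many genes, and whether they follow the few genes of highest GC content was not tested. With the replicate number as a block, 8 members were called lower in HBG, of 14 genes (0.0785%), and 13 in Model, of 20 (0.112%). DESeq2 called 56 members lower in HBG, of 145 genes (0.715%), and 66 in Model, of 234 (1.28%). For limma-voom with sample quality weights the counts were 43 in HBG, of 92 genes (0.516%), and 71 in Model, of 459 (2.57%).

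HBG against Model asked how the preparation related to transcript levels after bleomycin. The rule did not use this comparison directly, but it required every HBG library to lie below every Control library. A gene at Control levels in HBG could therefore not be a member, so the absence of such genes here was fixed by the rule. No member was called by edgeR with Benjamini-Hochberg adjustment, and no gene of the 17827 tested was (0%), with an adjusted p of 0.999867 as the lowest. All 81 members were tested. At an unadjusted p under 0.05 there was 1 member, against 433 genes in all (2.43%). DESeq2 called 3 genes of 34265 (0.00876%), of which 0 were members, and had 3 members at an unadjusted p under 0.05, against 579 genes in all (1.69%). By limma-voom 0 genes were called, and 9 members had an unadjusted p under 0.05, against 2632 genes of 17827 (14.8%).

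Fitted values in HBG were above Model for 51 members and below for 30. The median log2 fold change was 0.058 over members and 0.00061 over all genes tested, and 63.0% of members were above 0 against 50.1% of all. Without Model 2 the median turned to -0.049, and without HBG 3 it was 0.13. By role, 10 of 11 mitochondrial proteins, 6 of 7 RNA-handling and chromatin proteins and 9 of 13 transcription and DNA-binding regulators had a higher fitted value in HBG, with medians of 0.17, 0.10 and 0.16. The counts were 5 of 9 for channels, transporters and membrane proteins (median 0.014), 6 of 10 for signalling and other cytosolic proteins (0.037), 5 of 7 for secreted proteins (0.078) and 3 of 4 for named long noncoding RNAs (0.16). For the 20 predicted or unnamed members the count was 7, with a median of -0.079. Differences between roles were not tested, and all members come from the same libraries. Over whole families, members or not, the median was -0.0013 for Mrpl and Mrps, 0.019 for Timm and Tomm and 0.036 for Nduf. It was 0.030 for Cox, 0.075 for Uqcr, 0.10 for Atp5 and -0.33 for genes of the mitochondrial genome. The 95% interval of the log2 fold change included 0 for 80 of 81 members and lay within -1 to 1 for 62, with a median half-width of 0.54.

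The exception was Rnaseh2c, at 14.3 ± 1.78 CPM in HBG and 9.67 ± 1.78 CPM in Model (SD over 4 libraries each). The log2 fold change of Rnaseh2c was 0.52 ± 0.15 (SE, edgeR unadjusted p = 0.00435, adjusted p = 0.999867), with a 95% interval of 0.20 to 0.84. It was also the only member whose HBG and Model libraries did not overlap, against 232 of 17827 genes (1.3%) in either direction, and it failed the correction.

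The next smallest p-values belonged to Mpc2, with a log2 fold change of 0.36 ± 0.17, Inafm1 with 0.30 ± 0.15 and Ccdc85b with 0.34 ± 0.17 (SE). Their libraries overlapped between HBG and Model. Scand1 had 0.38 ± 0.20, with a 95% interval of -0.044 to 0.81, and its level in HBG remained at 0.0554 of the Control mean, against 0.0412 in Model. For Zfp771 the log2 fold change was 0.27, for Tmem238 0.014, for Nrtn -0.12 and for Kcnk12 -0.30, and none was called (edgeR adjusted p = 0.999867 for each). Leaving out single libraries moved Zfp771 over 0.10 to 0.41, with 0.13 by limma-voom, and the last 3 of these to either side of 0.

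**Figure D4:**
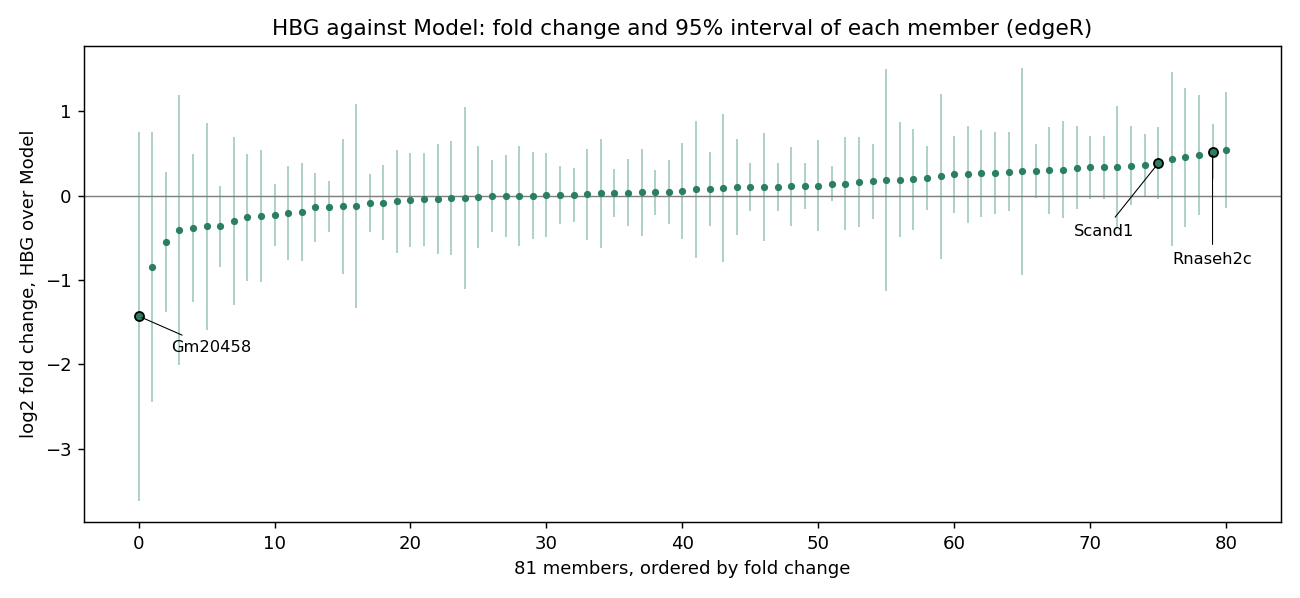
Log2 fold change of HBG over Model (y axis) for the 81 members in ascending order (x axis), with the 95% interval from edgeR. The interval of Rnaseh2c is the only one without 0, and the point for Gm20458 depends on the prior count, since both groups were near the level of 3 counts.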

How the data were processed

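RNA was measured in 12 lung libraries. The authors deposited estimated counts per gene in a single table. The unit was read from the values, since 10.0% to 15.1% of a library's values were not whole and totals differed. The labels' protocols describe poly-T bead selection, a stranded kit and paired 150-base reads. The aligners STAR 2.7.9a and HISAT2, the counters featureCounts 2.0.1 and HTSeq, DESeq2 1.34.0 and the builds GRCm39 and mm10 are listed, per the submitters' processing notes. Their roles, and the strand setting, are not given in the sources used here. Groups and replicate numbers came from the sample titles. Entries without a gene symbol (1542, 0.286% of counts) were kept under their identifiers.

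Members were found on CPM from the raw totals. The members, the families and the lists were chosen with earlier results of these data known. Genes named are the 3 markers, Nrtn, Kcnk12, the 15 lowest ratios, the 8 highest Control means, the 3 on either side of the ratio limit, the 4 smallest p-values of HBG against Model and 2 per family with several members. Other genes are marked where they appear or belong to a family list, an overlap with a member, or a role group.

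Counts were rounded to whole numbers, scaled by TMM and filtered by filterByExpr, which kept 17827 genes. They were tested with edgeR 4.0.16 (quasi-likelihood, two-sided, all 12 libraries, group as the only term) in R 4.3.3 with limma 3.58.1. Replicates of a group were compared in pairs: correlations of log2 CPM were 0.899 to 0.988, and chi-square values were 16.4 to 141 per degree of freedom, so none agreed within sampling noise. On simulated counts of HBG against Model (17585 genes), the test recovered 47 of 100 changes of 2-fold and 85 of 100 of 4-fold, with 7 false calls. Each simulated gene varied independently of the others, so recovery in the real libraries may differ. GC content, exons and overlaps came from GENCODE M21, which held 79 of the 81 members, and promoters from RefSeq. Alternatives were DESeq2 1.42.0, limma-voom with quality weights, other scalings and filters, a fit of the groups compared, a replicate block, offsets for GC content and length, other limits of the rule, and each library left out.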

Additional observations from a re-analysis of the deposited data

Results flagged for a closer look

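In 96 groups of 4 libraries, formed by the named members and the 3 groups, 6 had 1 library far from the other 3. Chance gives such a gap in about 1 in 20 groups. Gm20458 was at 0.247 CPM in HBG 4 and at 0 in the other 3 HBG libraries. Plac9 was at 109 CPM in HBG 2, against 69.8 to 76.3 CPM in the other HBG libraries. Hnrnpa0 was at 70.2 CPM in HBG 1, against 74.3 to 74.9 CPM in the others, a small gap in an otherwise tight group. H2aj was at 22.4 CPM in HBG 3, against 36.2 to 37.6 CPM in the others.

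Among Control libraries, C2cd4b was at 39.97 CPM in Control 2, against 6.02 to 10.3 CPM in the other 3. Inafm1 was at 14.2 CPM in Control 2, against 18.01 to 18.6 CPM in the others.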

How the results depend on the processing

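HBG against Model gave 0 called members under all 21 alternatives that were fitted. Over all genes tested, DESeq2 called 3 of 34265 (0.00876%) and every other alternative called 0, so the count is not particular to the members. The median log2 fold change of members, 0.058, was 0.023 to 0.097 under other tools, scalings, filters and corrections, and -0.049 to 0.13 with 1 library left out, below 0 only without Model 2. Directions turned for Tmem238, Nrtn and Kcnk12. Without single libraries Tmem238 took values of -0.16 to 0.15, with -0.078 without HBG 1, -0.11 without HBG 4 and -0.0011 without Model 3, Nrtn -0.42 to 0.52, with 0.15 without HBG 2, and Kcnk12 -0.54 to 0.047, with 0.034 without HBG 3. With the GC and length correction Nrtn was at 0.014. With limma-voom Nrtn was at -0.88 and Kcnk12 at 0.44. The cause was not tested. The mean of at least 1 CPM left 80 members tested, and the fit of HBG and Model alone 78, without Nrtn.

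Counts of members called lower depended on the tool. In Model against Control they were 30 of 53 genes called lower in all by edgeR, 66 of 234 by DESeq2, 71 of 459 by limma-voom, and 14 to 36 with 1 library left out, where 19 to 82 genes were called lower in all. In HBG against Control they were 16 of 23, 56 of 145 and 43 of 92, and 8 to 33 with 1 library left out, where 13 to 48 genes were. Leaving out Model 2, which shares in the estimate of spread, gave 33 of 48. The rule gave 43 members at a ratio under 0.5, 154 under 0.7 and 74 to 104 with 1 library left out, and with TMM-scaled CPM 89, of which 78 were among the 81. With the replicate number as a block, 8 members were called lower in HBG, of 14 genes in all, and 13 in Model, of 20. Same-numbered libraries did not deviate together: correlations of deviations were -0.20 to 0.48 for HBG and Model, -0.36 to -0.10 for HBG and Control, and -0.20 to 0.16 for Model and Control, so the numbers were not taken as pairs. Depth limits members near 3 counts, such as Gm20458, Gm1673 and Nrtn.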
